A study of Mus musculus with 16 samples.

Results

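The floor plate library of E8.5 mouse embryos (embryonic day 8.5) was compared with the other neural epithelium libraries of that stage, labelled non-floor plate and caudal brain and called so below. These 3 libraries are among 16 made from small regions of CD1 embryos, an outbred stock, that build the face between E8.5 and E10.5. Each region had 1 library, so no difference below has a replicate error or a p-value. A value is a ratio to the median of its gene over the 16 libraries, and a level below is that value as a multiple of the lowest value the gene has in any of the 16. A level compares libraries for 1 gene and does not compare genes. A gene was counted as higher or lower in floor plate when it was 2-fold or more beyond both other neural libraries in the same direction and at a level of 5 or more in the highest of the 3. Folds are given after the median difference between each pair of libraries was removed, which was a log2 shift of 0.30 against non-floor plate and 0.02 against caudal brain. Where the other library is at a lowest value that several libraries share, the fold is a lower bound and is written with "at least".

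The floor plate is the strip of cells at the ventral midline of the neural tube. In the textbook account it is induced by Sonic hedgehog (Shh) from the notochord and prechordal plate beneath it, and then makes Shh itself under the control of the forkhead factor Foxa2. Shh binds Patched receptors, which frees Smoothened and turns on Gli transcription factors. Their targets include Ptch1 and Gli1, which feed back on the pathway, and Nkx2 homeobox genes, which give ventral neural cells their identity.

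RefSeq start-site windows are shown for 3 of the hedgehog target genes that were higher in floor plate, because they include the genes with the largest fold over the nearer library among those targets and the receptor gene read most often for the pathway. Each window runs 5′ to 3′ on the strand of the gene, with 250 bases before and 50 after the start site, in build GRCm38.p6. They cover chr12:56613235-56613534 on the minus strand for Nkx2-9, chr12:56536859-56537158 on the minus strand for Nkx2-1 and chr13:63565686-63565985 on the minus strand for Ptch1. Capitals mark a match to the first 7 letters of the Gli binding motif, GACCACC, on either strand.

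Nkx2-9: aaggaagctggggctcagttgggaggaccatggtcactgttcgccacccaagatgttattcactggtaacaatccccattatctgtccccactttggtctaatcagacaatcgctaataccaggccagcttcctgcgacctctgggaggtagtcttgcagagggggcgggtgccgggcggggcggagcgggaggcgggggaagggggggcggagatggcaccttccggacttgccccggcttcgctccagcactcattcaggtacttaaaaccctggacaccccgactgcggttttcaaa

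Nkx2-1: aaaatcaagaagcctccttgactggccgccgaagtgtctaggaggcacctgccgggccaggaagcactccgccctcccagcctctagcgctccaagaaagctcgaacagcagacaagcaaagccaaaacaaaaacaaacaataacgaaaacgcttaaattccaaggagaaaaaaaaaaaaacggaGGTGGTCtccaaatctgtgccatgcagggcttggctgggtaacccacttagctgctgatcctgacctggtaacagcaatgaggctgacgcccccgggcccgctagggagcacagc

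Ptch1: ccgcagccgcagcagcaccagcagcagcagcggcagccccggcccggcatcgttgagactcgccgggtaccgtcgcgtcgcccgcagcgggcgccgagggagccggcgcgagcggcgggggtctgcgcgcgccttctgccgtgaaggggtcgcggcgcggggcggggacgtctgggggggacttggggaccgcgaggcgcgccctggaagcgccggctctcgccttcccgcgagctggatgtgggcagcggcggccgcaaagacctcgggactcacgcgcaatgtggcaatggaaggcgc

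The 7 letters were found once in the Nkx2-1 window, as their reverse complement GGTGGTC, 65 bases before the start site, and in 2.8% of all 32851 mouse windows of the same length. The full 9 letters GACCACCCA were in none of these 3 windows and in 0.253% of all windows. Foxa2, another higher target, has 3 RefSeq windows, and 0 of them hold the 7 letters. The windows of Nkx2-9 and Nkx2-1 lie 76376 bases apart on chromosome 12. Such matches describe the letters of a window and not binding.

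Of 15876 genes, 2656 were at a level of 5 or more in at least 1 of the 3 neural libraries. Among these, 151 genes were higher in floor plate, which is 5.69% of them, and 380 were lower, which is 14.3%. The other 2125 were not beyond both libraries. The higher and lower sets differed in kind. Protein-coding genes made up 119 of the 151 higher genes (78.8%) and 69 of the 380 lower genes (18.2%). They were 75.4% of all genes at level 5, so the higher set was near that share and the lower set was not. Pseudogenes made up 0 of the higher and 219 of the lower genes, which is 57.6% of the lower set.

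The lower set has to be read beside how the libraries stand. Over the 219 lower pseudogenes the median level was 1.29 in floor plate, 16.8 in non-floor plate and 5.86 in caudal brain. It was 12.1 in E9.5 cranial mesenchyme and at most 1.82 in the other 12 libraries, so floor plate lay with most of the series and 3 other libraries stood apart. The mitochondrial ribosomal RNA mt-Rnr1 showed the same 3 libraries. It was at its lowest value in floor plate and 12 others, against levels of 39177 in non-floor plate, 27134 in caudal brain and 31599 in E9.5 cranial mesenchyme. Genes for cytosolic ribosomal proteins, from which many of the pseudogenes are copied, had a median level of 7.54 in floor plate, 6.82 in non-floor plate and 7.91 in caudal brain, and 0 of their 65 members at level 5 were counted in either direction. The cause of this split between libraries was not tested. The ribosomal copies share sequence with their parent genes, so their values are uncertain. Among protein-coding genes alone, with the shift taken from them as well, 118 genes were higher and 69 lower in floor plate.

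**Figure D1:**
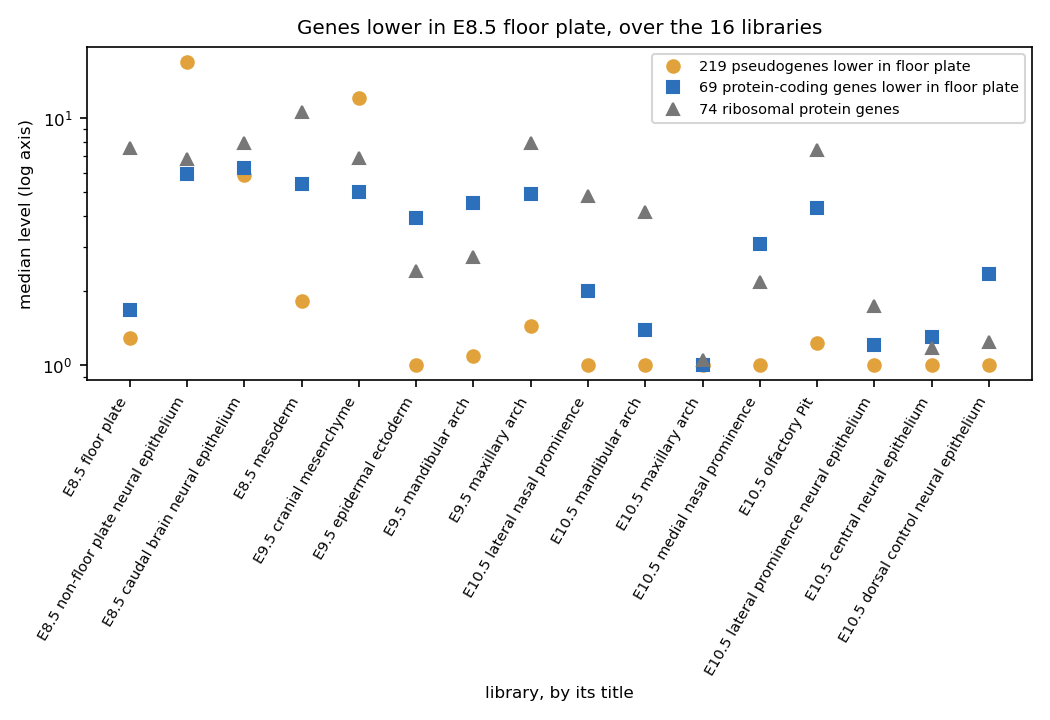
Median level, on a log axis, of the 219 pseudogenes and the 69 protein-coding genes that were lower in E8.5 floor plate and of 74 ribosomal protein genes, in each of the 16 libraries named by title. The pseudogenes sit at 16.8 in non-floor plate, 5.86 in caudal brain and 12.1 in E9.5 cranial mesenchyme and at 1.82 or less elsewhere, floor plate included, while the lower protein-coding genes sit at 1.67 in floor plate against 5.95 in non-floor plate and 6.26 in caudal brain.

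**Figure D2:**
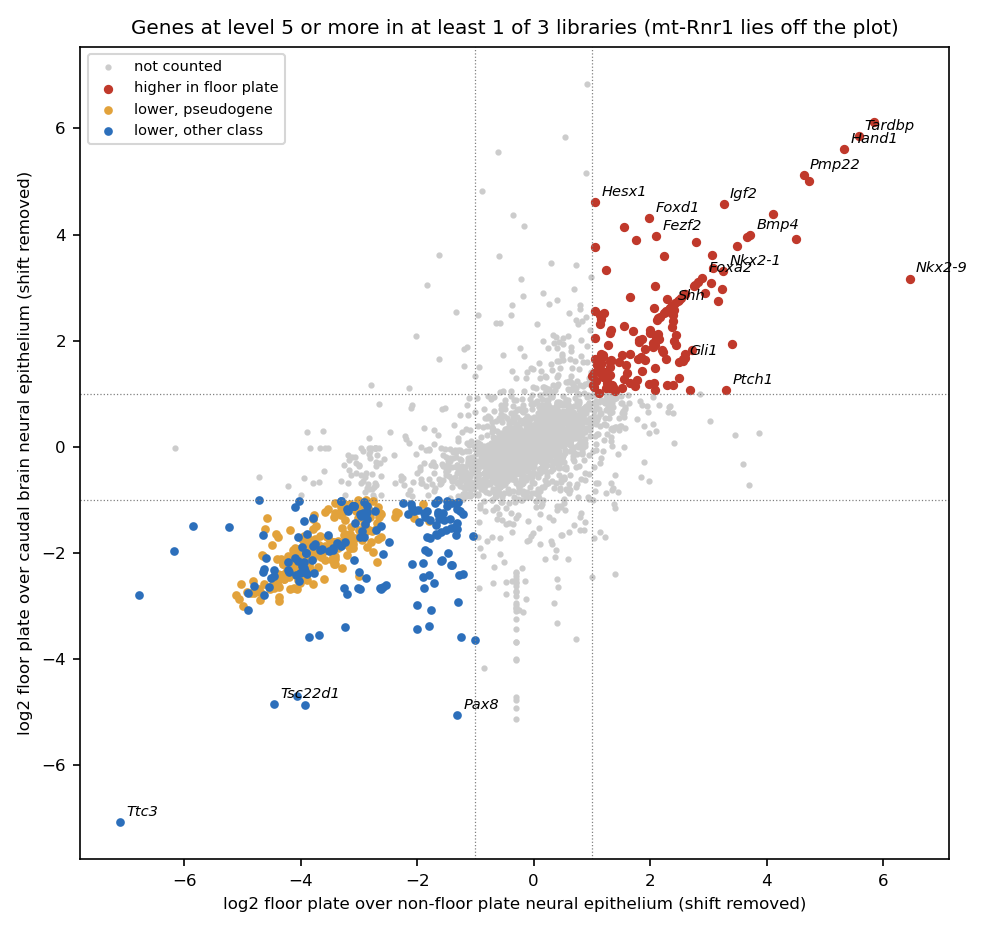
Log2 difference of floor plate over non-floor plate (horizontal) and over caudal brain neural epithelium (vertical), both after the shift was removed, for genes at level 5 or more in at least 1 of the 3 libraries. Each point is a gene, dotted lines mark 2-fold, and mt-Rnr1 lies off the plot. Higher genes fill the upper right, and most lower genes are pseudogenes to the lower left.

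The counted sets have soft edges. The higher genes closest to the 2-fold limit were Gpx3 and Itga5 at 2.01-fold over the nearer library, and Fgfr2 at 1.98-fold just missed it. On the level, Chml and Zdhhc18 were just inside at 5.07 and Fam221a just outside at 4.96. In 130 of the 151 higher genes floor plate alone of the 3 libraries reached level 5. Such a gene enters through the library in which it is high, so the counts of higher list members below are given out of all members measured, to be read beside 151 of 15876 genes (0.951%) higher and 380 (2.39%) lower, as a description only. In 31 of the 151 higher genes both other neural libraries were at a shared lowest value, and in 136 of the 380 lower genes floor plate was. In 127 of the higher genes the 2 other libraries were within 2-fold of each other. In 290 of the lower genes, by contrast, non-floor plate was 2-fold or more above caudal brain.

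The floor plate label was checked on its markers, and all 4 were counted as higher. Shh, the secreted ligand, had a level of 6.36 in floor plate and was at its lowest value in non-floor plate, caudal brain and E8.5 mesoderm. It was at least 5.17-fold above non-floor plate and at least 6.26-fold above caudal brain. Foxa2, the forkhead factor of floor plate, notochord and endoderm, had a level of 9.18 in floor plate and was at its lowest value in the other 15 libraries. Floor plate was the single library of the series with Foxa2 above that value.

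Nkx2-9, a homeobox gene of the cells that flank the ventral midline, had the widest gap of the 4 against non-floor plate. Its level was 108 in floor plate, at the lowest value in non-floor plate, 11.8 in caudal brain and 4.57 in mesoderm. It was at least 87.8-fold above non-floor plate and 9.0-fold above caudal brain. Caudal brain thus held Nkx2-9 at a level that non-floor plate did not.

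Ptch1, the Shh receptor and the most used readout of the pathway, followed the same order at a smaller distance. Its level was 31.4 in floor plate, 2.59 in non-floor plate, 14.8 in caudal brain and 11.04 in mesoderm. Floor plate was 9.88-fold above non-floor plate and 2.09-fold above caudal brain, near the 2-fold limit, and Ptch1 was no longer counted when 1 shift from the mean of both libraries was removed. Medial nasal prominence at E10.5 had nearly the same level, 31.4.

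Hedgehog genes were followed in 4 lists, on ligand release, receptors and transduction, targets, and floor plate. In bulk RNA, fewer cells of a type and less RNA per cell cannot be told apart, here and below. Of the ligand and release list, 2 of 4 measured members were higher and 0 lower. The second was Gpc3, a glypican that binds hedgehog at the cell surface, at levels of 19.6 in floor plate, 7.69 in non-floor plate and 3.29 in caudal brain. Its level in E8.5 mesoderm was close to that in floor plate, 17.2. Scube2, which helps release the ligand, stood at 11.1 in floor plate, 10.3 in non-floor plate and 7.77 in caudal brain, and was not counted. Hhat, the enzyme that palmitoylates Shh, was at its lowest value in all 3.

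Of the receptor and transduction list, 11 genes were measured and 5 reached level 5. Ptch1 alone was higher and 0 were lower. Smo, the transducer held down by Patched, had levels of 8.25 in floor plate, 2.87 in non-floor plate and 5.60 in caudal brain, which was not 2-fold beyond both. The co-receptors ran the other way or were even. Boc was at its lowest value in floor plate and non-floor plate and at 3.92 in caudal brain. Cdon was at 2.05 in floor plate, 1.79 in non-floor plate and 5.37 in caudal brain. Gas1 was at 4.95 in floor plate, 6.27 in non-floor plate and 6.91 in caudal brain.

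The Gli factors did not move as a group. Gli1, itself a target, had a level of 7.27 in floor plate, was at the lowest value in non-floor plate and at 2.34 in caudal brain and 3.84 in mesoderm. It was at least 5.91-fold above non-floor plate and 3.05-fold above caudal brain, and floor plate was its highest library of the 16. Gli2, the main activator, was at 10.1 in floor plate, 10.8 in non-floor plate and 12.9 in caudal brain. Gli3, the main repressor, was at 2.95 in floor plate, 3.83 in non-floor plate and 3.11 in caudal brain. Neither Gli2 nor Gli3 was counted.

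Of the target list, 6 of 14 measured members were higher and 0 lower, and 4 of the 6 reached level 5 in floor plate alone. The median log2 difference of the measured members from the mean of both libraries was 1.57, against -0.16 over all genes. Besides Ptch1, Gli1, Foxa2 and Nkx2-9 these were Nkx2-1 and Foxd1. Nkx2-1, a homeobox gene of the ventral forebrain, had a level of 11.7 in floor plate, was at the lowest value in non-floor plate, and at 1.16 in caudal brain and 1.47 in mesoderm. Foxd1, a forkhead factor of the ventral forebrain and of stromal tissue, had levels of 20.03 in floor plate, 4.13 in non-floor plate, the lowest value in caudal brain and 17.6 in mesoderm. Nkx2-1 was high in no other E8.5 library, and Foxd1 was nearly as high in mesoderm.

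Several ventral genes were above their lowest value in floor plate but under level 5. Nkx2-2, which marks cells next to the floor plate, was at 4.04 in floor plate and at its lowest value in non-floor plate and caudal brain. Nkx6-1, of the ventral neural tube, was at 4.63 in floor plate, the lowest value in non-floor plate and 2.90 in caudal brain. Foxa1, the close relative of Foxa2, was at 3.83 in floor plate, the lowest value in non-floor plate and 1.53 in caudal brain. Olig2, which marks motor neuron progenitors, was at its lowest value in all 3. A level minimum of 10 in place of 5 leaves out Shh, Foxa2 and Gli1 as well.

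Of the floor plate list, 4 of 13 measured members were higher and 0 lower, 2 of them at level 5 in floor plate alone. The fourth beside Shh, Foxa2 and Nkx2-9 was Spon1, which encodes F-spondin, a matrix protein of the floor plate that guides axons. Its level was 25.1 in floor plate, 8.63 in non-floor plate, 11.5 in caudal brain and 3.66 in mesoderm. At 2.36-fold over non-floor plate and 2.15-fold over caudal brain it was close to the limit, and it too was not counted with 1 shift from the mean. Other genes known from the floor plate were not counted. Ntn1, the netrin that attracts commissural axons, was at 1.85 in floor plate, 2.71 in non-floor plate and 3.42 in caudal brain. Lmx1a, of the midbrain floor plate, was at its lowest value in all 3, and Lmx1b was at its lowest value in floor plate and non-floor plate and at 5.76 in caudal brain.

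**Figure D3:**
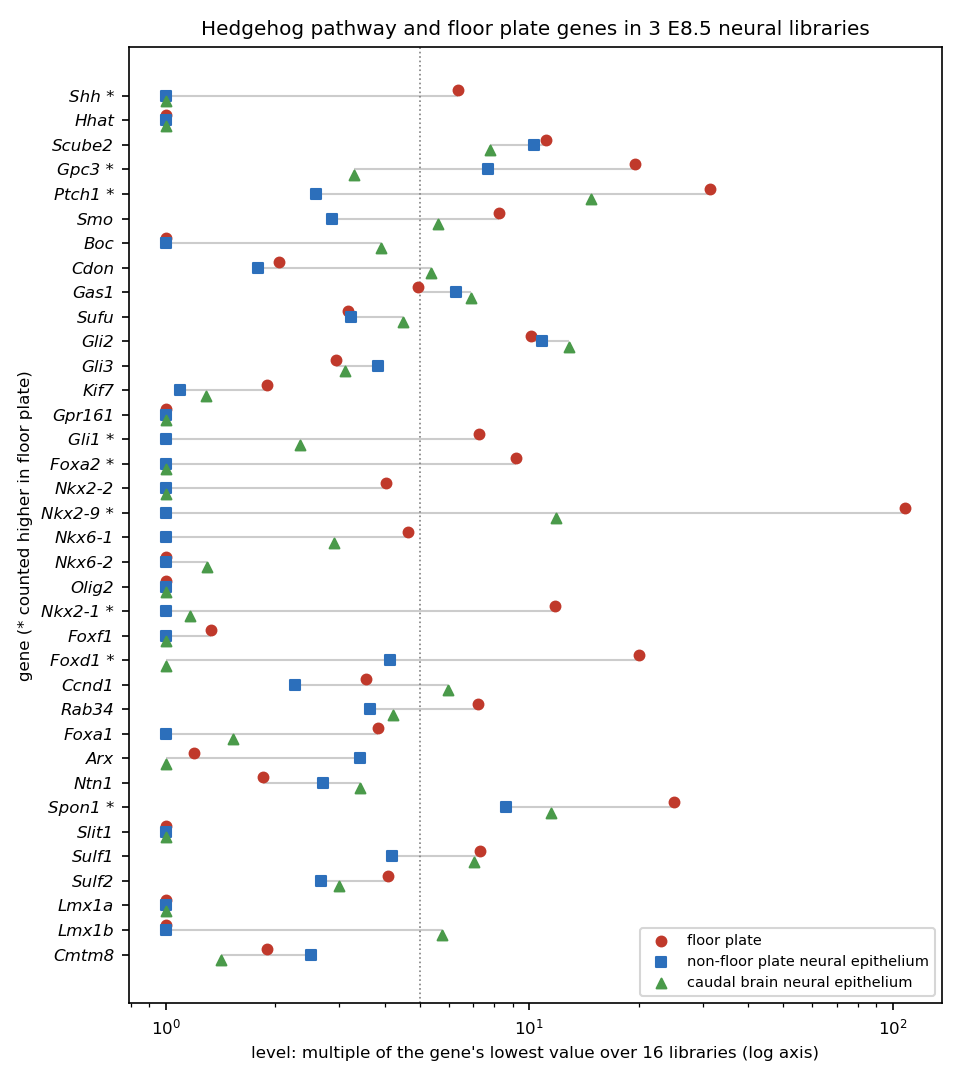
Levels, on a log axis, of measured members of the hedgehog and floor plate lists in floor plate (red circles), non-floor plate (blue squares) and caudal brain neural epithelium (green triangles), with 1 library each. The dotted line marks level 5 and a star marks a gene counted as higher in floor plate. Shh and Foxa2 are at their lowest value in both other libraries, Nkx2-9 is at 108 in floor plate, and Gli2 and Gli3 lie close together in all 3.

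The position of floor plate along the brain was read from regional genes. Of the forebrain and eye field list, 3 of 18 measured members were higher and 0 lower in floor plate. Hesx1, a homeobox repressor of the anterior neural plate, had levels of 24.9 in floor plate and 9.74 in non-floor plate and was at its lowest value in the other 14 libraries. Fezf2, a zinc-finger factor of the forebrain, was at 15.8 in floor plate, 3.0 in non-floor plate and the lowest value in caudal brain. Lhx5, a LIM homeobox gene, was at 10.2 in floor plate, 3.50 in non-floor plate and the lowest value in caudal brain. All 3 were present in floor plate and non-floor plate and at the lowest value in caudal brain.

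Most other forebrain genes were shared by floor plate and non-floor plate and were low in caudal brain, so the rule of being beyond both libraries did not count them. Six3, which holds the forebrain against posterior signals, had levels of 116 in floor plate, 49.9 in non-floor plate and its lowest value in caudal brain. Otx2, of forebrain and midbrain, was at 65.1 in floor plate, 62.2 in non-floor plate and 17.6 in caudal brain. Rax, the eye field gene, was at 11.1 in floor plate, 7.34 in non-floor plate and its lowest value in caudal brain. Another member went the other way. Emx2, of the dorsal telencephalon, was at 1.13 in floor plate, 6.56 in non-floor plate and its lowest value in caudal brain.

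Midbrain and hindbrain genes entered level 5 mostly through caudal brain alone, so that they stand high there follows in part from that filter. Of 17 measured members 0 were higher and 2 lower in floor plate, and the median log2 difference of the list was -1.43. En1, Pax5, Hes3 and Wnt1, which pattern the midbrain-hindbrain boundary, were at their lowest value in floor plate and non-floor plate, against 25.8, 30.2, 34.7 and 16.01 in caudal brain. Pax8, a boundary gene, was counted as lower, at its lowest value in floor plate, 2.02 in non-floor plate and 33.0 in caudal brain. Meis1, a homeobox cofactor, was at 2.38 in floor plate, 5.60 in non-floor plate and 6.14 in caudal brain. Non-floor plate thus lay near floor plate in the boundary genes and near caudal brain in Meis1.

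Of 15 measured neural progenitor genes 0 were counted in either direction. Sox2, which marks neural progenitors, had levels of 21.8 in floor plate, 16.4 in non-floor plate and 13.6 in caudal brain. Not all members were even. Pax6 was at 28.6 in floor plate, 43.1 in non-floor plate and its lowest value in caudal brain, and Fabp7 was at its lowest value in floor plate and non-floor plate and at 8.47 in caudal brain. Of the neuronal differentiation list only Map2, a microtubule protein of neurons, was counted, at 7.62 in floor plate, 2.82 in non-floor plate and 2.51 in caudal brain.

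Many large differences in the higher set were in genes better known from other tissues. The 15 genes with the largest fold over the nearer library, leaving out predicted names and taking lower bounds as they stand, held Nkx2-9 and Nkx2-1, the microRNA Mir1897, Tardbp and 11 genes described below. Hand1, a bHLH factor of heart, lateral and extraembryonic mesoderm, had a level of 49.5 in floor plate and was at its lowest value in non-floor plate, caudal brain and E8.5 mesoderm. It was at least 40.2-fold above non-floor plate and at least 48.7-fold above caudal brain, and its highest level elsewhere was 5.81, in E9.5 mandibular arch. Postn, a matrix protein of mesenchyme, had a level of 32.5 in floor plate and was also at its lowest value in the 3 other E8.5 libraries.

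Bmp4, a ligand made by surface ectoderm, extraembryonic mesoderm and roof plate, had levels of 16.1 in floor plate, the lowest value in both other neural libraries and 2.54 in mesoderm. Col1a1, a fibrillar collagen, was at 15.6 in floor plate, the lowest value in both and 3.11 in mesoderm. Acta2, smooth muscle actin, was at 21.2 in floor plate, the lowest value in both and 4.71 in mesoderm. Each of these 3 genes had its highest level of the 16 libraries in floor plate. Ahnak, a large scaffold protein, was at 13.9 in floor plate, the lowest value in both and 11.9 in mesoderm. Pmp22, a membrane protein best known from myelin, had levels of 112 in floor plate, 3.67 in non-floor plate, 3.19 in caudal brain and 12.6 in mesoderm, so it was 24.9-fold above the nearer neural library.

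Of the amnion, allantois and extraembryonic mesoderm list, 5 of 10 measured members were higher in floor plate and 0 lower, namely Hand1, Postn, Bmp4, Ahnak and Col1a1. All 5 reached level 5 in floor plate alone. The median log2 difference over the 10 was 2.20, against -0.16 over all genes. The mean log2 level of the list was 2.42 in floor plate, 0.09 in non-floor plate, 0.02 in caudal brain and 1.31 in mesoderm. Not every marker moved. Pitx1, Vcam1 and Kdr were at their lowest value in floor plate, and Gata6, of extraembryonic endoderm and heart, was at 1.91. The part of cells from such a tissue in the floor plate sample was not tested.

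Heart and smooth muscle genes were mixed. Of 12 measured members, Hand1 and Acta2 were higher and Actc1, cardiac actin, was lower, at 1.21 in floor plate, 2.60 in non-floor plate and 5.62 in caudal brain. Tnnt2 was at 4.67 in floor plate, Tbx20 at 3.74, Tagln at 2.78 and Hand2 at 2.5, each at its lowest value in both other neural libraries and each under level 5. Myl7, of atrial muscle, and Isl1, of heart progenitors, were at their lowest value in floor plate.

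Keratin genes of simple epithelia were higher in floor plate. Krt19 had a level of 8.69 in floor plate and Krt8 one of 6.49, each at its lowest value in non-floor plate and caudal brain. In mesoderm Krt19 was at its lowest value and Krt8 at 1.005. Krt18 was at 8.32 in floor plate, 1.61 in non-floor plate, the lowest value in caudal brain and 2.28 in mesoderm. Krt8 and Krt18 were higher than in floor plate in E9.5 epidermal ectoderm (15.5 and 25.9) and E10.5 olfactory pit (15.8 and 23.1), while Krt19 was highest in floor plate. These keratins were the 3 higher genes of 15 measured on the surface epithelium list and, with Foxa2 and Nkx2-1, made up the 5 of 13 on the foregut endoderm list. Each reached level 5 in floor plate alone of the 3 libraries. The members that were not counted were mixed. Foxa1 of the endoderm list and Grhl2 of the surface list, at 3.83 and 2.52 in floor plate, were above both other neural libraries but under level 5. Several others were low. Trp63, Tfap2a and Cdh1 were at their lowest value in floor plate, as were Sox17 and Isl1, and Epcam was at 1.59 in floor plate, 1.32 in non-floor plate and the lowest value in caudal brain. The notochord and prechordal plate list gave 2 higher of 5 measured, which were Shh and Foxa2, genes of the floor plate list as well. Its other measured members Nog, Hhex and Lhx1 were at their lowest value in floor plate. The part of underlying midline tissue or of surface cells was not tested.

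Of the cytoskeleton, S100 and annexin list 9 of 29 measured members were higher and 0 lower, and 8 of the 9 reached level 5 in floor plate alone. The median log2 difference over the 29 was 1.37. Pmp22, a member of none of these families, is among the 9. The list was drawn up with earlier results of these data known, so its count is a description only. S100a11, a calcium-binding protein, had levels of 28.0 in floor plate, its lowest value in non-floor plate, 1.83 in caudal brain and 11.1 in mesoderm. Cnn2, a calponin, was at 13.2 in floor plate, 1.14 in non-floor plate and 1.65 in caudal brain, but at 47.9 in mesoderm. Tpm2, a tropomyosin, was at 15.7 in floor plate, 5.74 in non-floor plate, 5.19 in caudal brain and 16.7 in mesoderm. The others were S100a10, Anxa2, Myl9 and Cald1, at 5.27 to 7.0 in floor plate and at most 1.87 in either other neural library, with Acta2 and Pmp22 as above. Of these 9 genes, 6 had a higher level in E8.5 mesoderm than in floor plate, with no shift removed. Among the 6, Tpm2 and Anxa2 (5.34 in floor plate, 5.45 in mesoderm) were nearly even. For both, floor plate was at rank 1 of 16 when the shift of each library was removed first.

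The matrix list gave Col1a1, Col1a2 and Postn as higher, 3 of 22 measured members, and 0 lower. Col1a2 was at 5.88 in floor plate, 1.20 in non-floor plate, 1.27 in caudal brain and 12.8 in mesoderm. Snai2, a zinc-finger factor of neural crest and mesenchyme, was at 11.1 in floor plate, 1.10 in non-floor plate, 1.29 in caudal brain and 11.8 in mesoderm. It was the only higher member of the neural crest list, and Crabp1, a retinoic acid binding protein of crest and hindbrain, was lower, at 6.11 in floor plate, 10.025 in non-floor plate and 75.7 in caudal brain. At 2.02-fold below non-floor plate Crabp1 was near the limit and was not counted when no shift was removed.

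Markers of further tissues were low in floor plate. The cranial mesoderm list had 0 of 13 measured members at level 5 in the 3 libraries, and Twist1, Foxc1 and Prrx1 were at their lowest value in all 3, against 21.03, 15.1 and 8.80 in mesoderm. The endothelium list had 0 of 13, with Cdh5 and Kdr at their lowest value in floor plate. The erythroid list had 0 of 13 at level 5 in the 3 libraries. Hba-x was at its lowest value in floor plate, while Hba-a1 stood at 4.02 there and at its lowest value in both others. Sox10, of neural crest, was at its lowest value in floor plate and at 12.9 in mesoderm.

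E8.5 mesoderm was set beside all 151 higher genes. Floor plate was 2-fold or more above mesoderm too in 98 of them, within 2-fold in 47 and 2-fold or more below it in 6. Floor plate was the highest of the 16 libraries in 84 of the 151 genes (55.6%) and in 442 of all 2656 genes at level 5 (16.6%), a rank that being counted as higher favours. When the shift of each library was removed first, the 84 became 76.

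**Figure D4:**
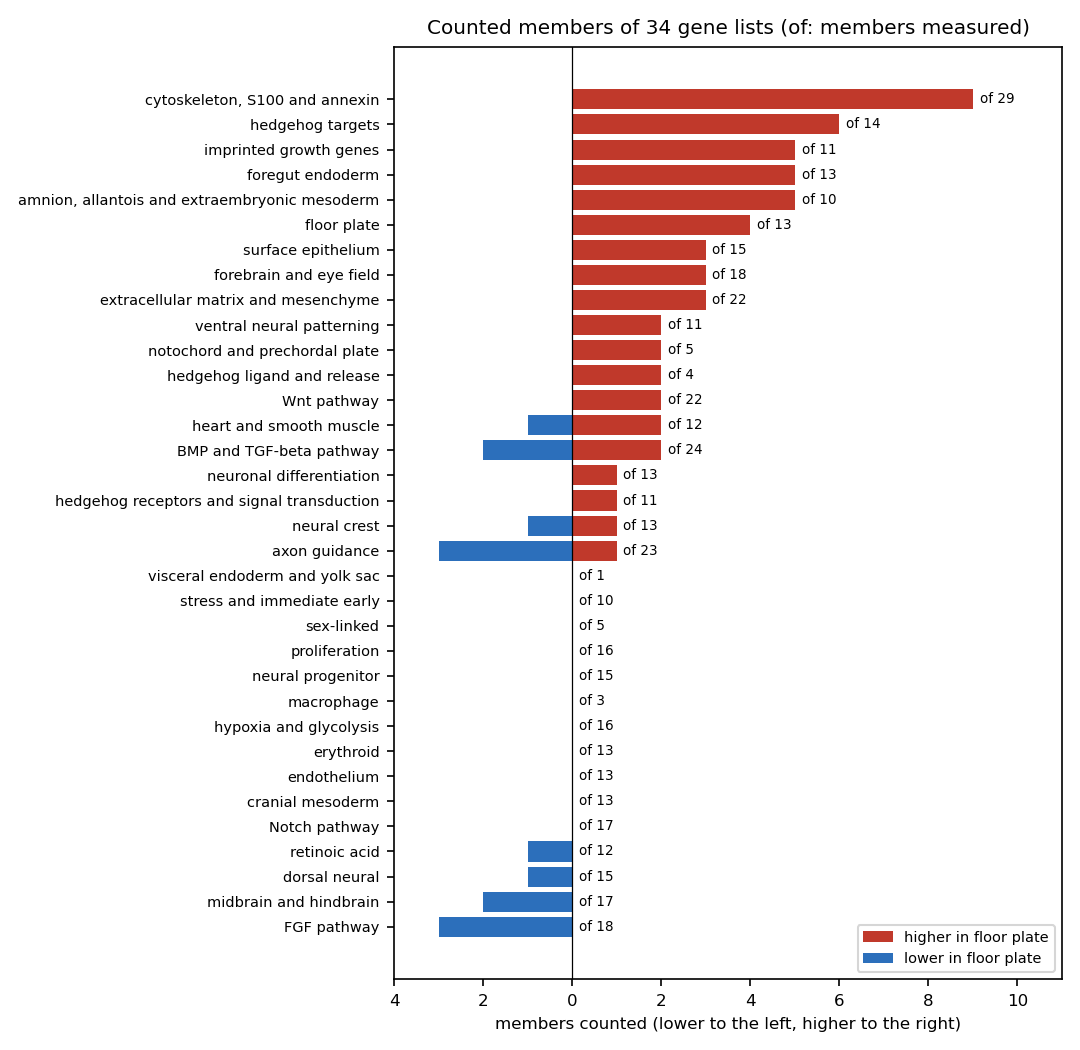
Number of members counted as higher (red, to the right) and lower (blue, to the left) in floor plate for each of 34 gene lists, with the number of members measured beside each bar. The lists were drawn up with earlier results of these data known. The longest bars are cytoskeleton, S100 and annexin genes (9 of 29) and hedgehog targets (6 of 14), and FGF pathway and axon guidance genes have 3 lower members each.

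Several imprinted genes, expressed from 1 parental copy, were among the higher genes. Of the imprinted growth list 5 of 11 measured members were higher and 0 lower, 4 of them at level 5 in floor plate alone, and the median log2 difference over the 11 was 1.39. Igf2, a fetal growth factor, had levels of 74.3 in floor plate, 6.30 in non-floor plate, 3.08 in caudal brain and 225 in mesoderm. H19, the non-coding RNA next to Igf2, was at 14.7 in floor plate, 1.74 in non-floor plate, the lowest value in caudal brain and 41.2 in mesoderm. Both were thus higher in mesoderm than in floor plate.

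Dlk1, a membrane protein of progenitor cells, was at 12.4 in floor plate, 1.20 in non-floor plate and its lowest value in caudal brain and in mesoderm. It reached 131 in E9.5 epidermal ectoderm. Plagl1, a zinc-finger growth regulator, was at 15.2 in floor plate, 3.64 in non-floor plate, its lowest value in caudal brain and 8.39 in mesoderm. Peg3 was at 5.09 in floor plate, its lowest value in non-floor plate, 1.30 in caudal brain and 7.89 in mesoderm. High levels of these growth genes were not particular to floor plate, which was at rank 5 to 8 of 16 for them. The mean log2 level of the growth list was 2.90 in floor plate and 3.46 in E9.5 mandibular arch. It was 1.14 in non-floor plate and 0.85 in caudal brain, the lowest means of the 16 libraries. A wider imprinted list, which was drawn up after these values were seen, held 9 higher genes of 37 measured and 0 lower. It added Snrpn at 51.7 in floor plate, 18.4 in non-floor plate and 15.4 in caudal brain, with Rtl1, Magel2 and Airn. Magel2 was not counted with 1 shift from the mean.

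Other signalling lists had members in both directions. Of the BMP and TGF-beta list, Bmp4 and the ligand Tgfb2 were higher, at 16.1 and 6.22 in floor plate and at their lowest value in both other neural libraries, and the response genes Id1 and Id2 were lower, 2 each way of 24 measured and of 9 at level 5. Id1 was at 1.18 in floor plate, 2.90 in non-floor plate and 5.16 in caudal brain, and Id2 at 3.98 in floor plate, 8.05 in non-floor plate and 11.4 in caudal brain. Bmp4 was thus counted as higher and Id1 and Id2 as lower, which does not describe the BMP response as a whole. Msx1 and Msx2, of the dorsal neural list, leaned the other way but stayed under level 5. They were at 2.18 and 1.97 in floor plate, the lowest value in non-floor plate, and 1.10 and 1.21 in caudal brain. Id3 was even, at 32.3 in floor plate, 28.8 in non-floor plate and 27.8 in caudal brain.

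Of the FGF list 3 of 10 members at level 5 were lower and 0 higher, beside 14.3% of all genes at level 5 and 3.44% of the protein-coding ones lower. Spry2, Etv5 and Il17rd, which FGF signalling induces, were counted. Spry2 was at 1.501 in floor plate, 4.89 in non-floor plate and 15.99 in caudal brain. Etv5 was at its lowest value in floor plate, 2.76 in non-floor plate and 8.32 in caudal brain, and Il17rd at its lowest value in floor plate, 2.83 in non-floor plate and 10.3 in caudal brain. Of the 3 neural libraries, caudal brain had the highest level of all 3 genes. Fgf17 and Fgf18 were also above their lowest value there, at 5.83 and 16.1. Other FGF genes did not follow. Fgf15 was at 4.79 in floor plate, 1.75 in non-floor plate and 5.47 in caudal brain. Etv4 was at its lowest value in all 3 libraries. Spry4 was at its lowest value in floor plate, 1.31 in non-floor plate and 1.23 in caudal brain. Spry2, Etv5 and Il17rd were under level 5 in non-floor plate, as were Pax8, Actc1, Id1, Sema3a and Nrp2. These 8 were not counted against non-floor plate alone or with level 5 required in both other libraries. Of the Wnt list 2 of 22 measured members were higher and 0 lower. Rspo1, which enhances Wnt signalling, was at 6.66 in floor plate, the lowest value in non-floor plate and 1.74 in caudal brain, and Tcf7l1, a repressor of Wnt targets, at 61.6 in floor plate, 24.0 in non-floor plate and 19.3 in caudal brain. Of 5 Notch pathway genes at level 5, 0 were counted.

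In the axon guidance list 1 of 23 measured members was higher, at level 5 in floor plate alone. Of its 9 members at level 5, 3 were lower, beside 14.3% of all genes at level 5 and 3.44% of the protein-coding ones. Slit3, a midline repellent, was at 6.89 in floor plate, 1.22 in non-floor plate and 1.92 in caudal brain, while Slit1 was at its lowest value in all 3. Sema3a, a repellent, was at its lowest value in floor plate, 4.91 in non-floor plate and 6.199 in caudal brain. Nrp2, a semaphorin receptor, was at its lowest value in floor plate, 3.01 in non-floor plate and 6.26 in caudal brain. Efna5, an ephrin, was at 2.94 in floor plate, 8.51 in non-floor plate and 9.42 in caudal brain. Genes of proliferation, and of hypoxia and glycolysis, had 0 counted members of 4 and of 14 at level 5.

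Outside the pseudogenes, the lower set was led by genes at or near their lowest value in floor plate and well above it in both others. Tsc22d1, a transcriptional regulator, was at 17.9 in non-floor plate and 28.6 in caudal brain, and floor plate was its lowest library of the 16. Phc2, a Polycomb subunit, was at 13.7 in non-floor plate and 25.8 in caudal brain, and again lowest in floor plate. Cntfr, the ciliary neurotrophic factor receptor, was at its shared lowest value in floor plate, 12.4 in non-floor plate and 28.9 in caudal brain, at least 15.3-fold lower in floor plate than in non-floor plate. Pigp, Naa10, Rnf121, Socs2 and Ube2j2 were likewise at their lowest value in floor plate, at 6.39 to 11.8 in non-floor plate and 6.23 to 11.9 in caudal brain. Of the 15 lower genes with the largest fold the small RNAs mmu-mir-2144, mmu-mir-2134-3, mmu-mir-297a-2 and SNORD16 were the rest, with mt-Rnr1, Ttc3 and Sema3a. That ranking left out 300 pseudogene and predicted names. As an example chosen after its values were seen, the ribosomal pseudogene Rps15a-ps7 was at 1.48 in floor plate, 40.1 in non-floor plate and 10.7 in caudal brain.

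A group of 3 counted genes had values that were either at the lowest value or far above it, with at most 1 library in between, a pattern found in 15 genes of the series. Tardbp, an RNA-binding protein, had the largest fold over the nearer library among the higher genes with no predicted name, itself a lower bound, at 58.8 in floor plate and the lowest value in non-floor plate and caudal brain. In the other 13 libraries it was at 39.3 to 75.1 in 7 and at its lowest value in 6. Ttc3, a ubiquitin ligase, was at its lowest value in floor plate, 112 in non-floor plate and 134 in caudal brain, and at its lowest value in 3 more libraries. The third was mt-Rnr1.

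Across the series, the genes whose pattern was most like that of Shh were sought among 3722 genes at level 5 or more in 2 libraries. By the Pearson correlation of log2 levels over the 16 libraries they were Nkx2-1 (0.93), Tox2 (0.86), Mir665 (0.86), Rgs8 (0.86) and Ppargc1a (0.86), given as a description. Not all of them were high in floor plate. Their levels there were 11.7 for Nkx2-1, 5.08 for Tox2, 4.42 for Mir665, 1.11 for Rgs8 and 2.89 for Ppargc1a. Besides floor plate, Shh was above its lowest value in 3 E10.5 libraries, at 11.6 in medial nasal prominence, 7.04 in the library titled central neural epithelium and 12.4 in the library titled dorsal control neural epithelium. The titles of these last 2 libraries are exchanged in the column headers of their files, so which of them is dorsal is uncertain. Nkx2-1 was at 49.9, 3.91 and 101 in the same 3 libraries. In the order of Shh levels floor plate was at rank 4 of 16. Floor plate at E8.5 and medial nasal prominence at E10.5 were the libraries in which the level of Ptch1 was highest. When the shift of each library was removed first, floor plate was at rank 3 of 16 for Ptch1.

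**Figure D5:**
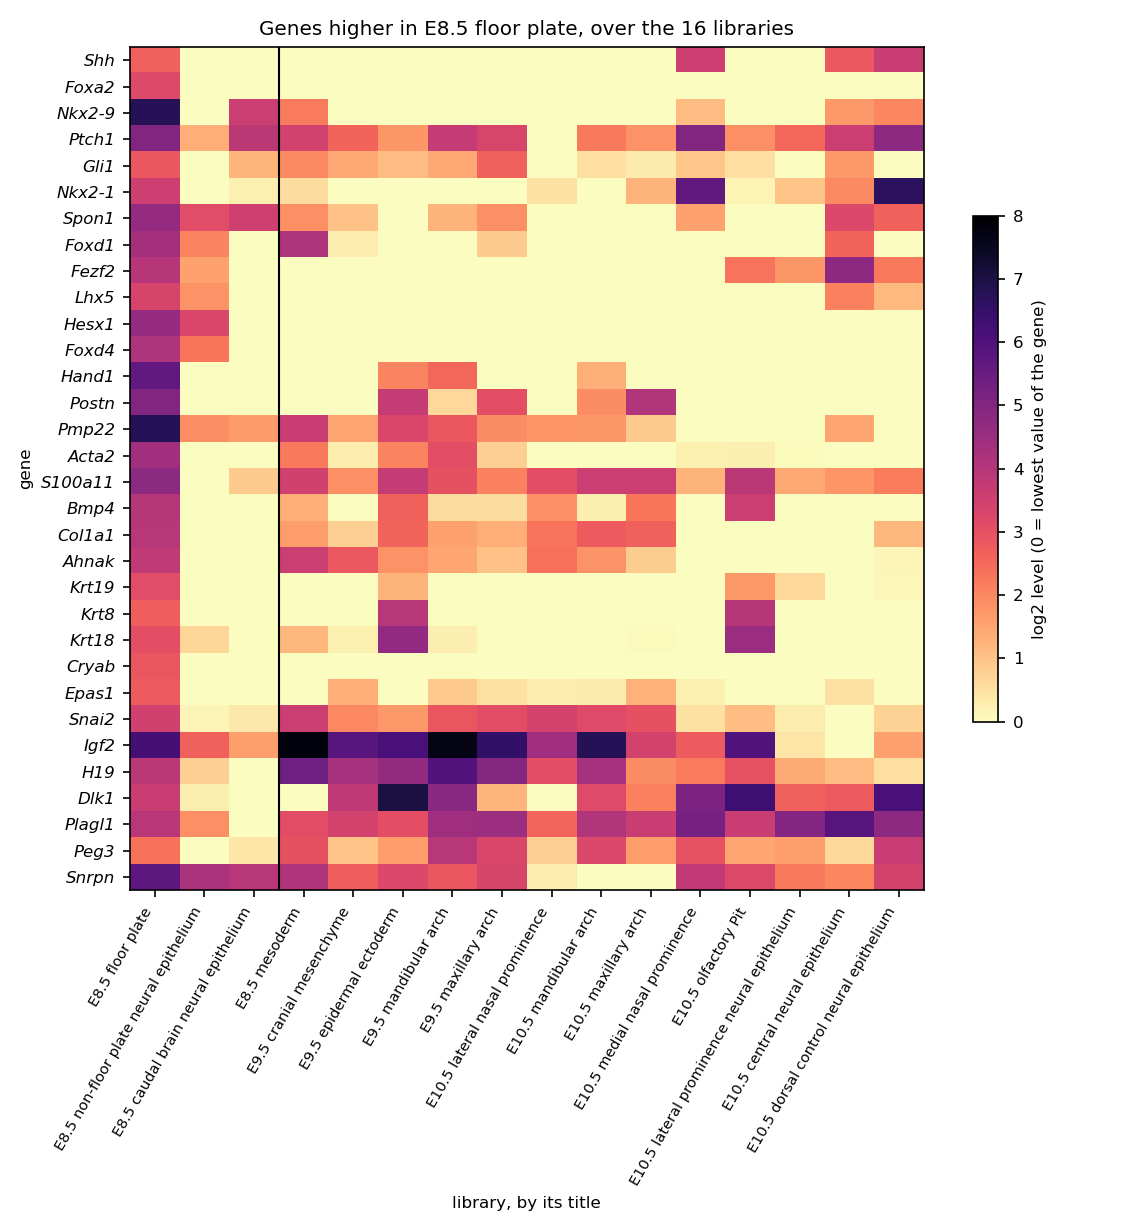
Log2 level of 32 genes that were higher in floor plate, in each of the 16 libraries named by title, with the 3 neural libraries of E8.5 to the left of the line and 0 for the lowest value of a gene. Foxa2 stands above 0 in floor plate alone, Hesx1 in floor plate and non-floor plate, and Igf2 and H19 are at their highest in mesoderm or E9.5 mandibular arch.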

How the data were processed

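Total RNA of CD1 embryos, prepared with the Zymo ZR RNA MicroPrep kit, was read on an Illumina HiSeq from a single end over 50 bases, with a stated depth above 40000000 reads, per the labels' protocols. Bowtie, TopHat, TopHat2 and Cufflinks and the build mm9 are named, without versions, per the submitters' processing notes. The depth of each library is unknown, so no counting interval was computed. The deposited values are a ratio, since each of the 15876 genes has a median of 1 over the 16 libraries, as read from the values. The unit before that division is not given in the sources used here. In 8794 genes 2 or more libraries share the lowest value (relative tolerance 1e-06), and the other 7082 genes set the shift between libraries.

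Levels, differences and counts were computed with Python 3.11.15, pandas 2.3.3 and numpy 2.4.6, on a script tested on simulated data. Gene classes come from GENCODE M21, matched by identifier for 14786 genes, and promoter windows from RefSeq. With 1 library per region no test was run. The genes named are measured hedgehog and floor plate members, counted members of the other lists, the 15 counted genes with the largest fold over the nearer library in each direction, and the 5 genes most like Shh. Pseudogene, predicted and clone names were left out of that ranking, 26 among the higher and 300 among the lower genes. List members that were not counted, threshold neighbours and genes of the wider imprinted list were chosen after their values were seen. The rule, the 34 lists (473 genes, 405 measured) and the named genes were all chosen with earlier results of these data known. A few list members are not reported here.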

Additional observations from a re-analysis of the deposited data

How the results depend on the processing

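No paired analysis was possible because each region has 1 library and the labels carry no replicate numbers. Floor plate has no second library to stand in for it, and the other libraries were each left out in turn. Counts below are genes higher and then lower in floor plate, against 151 and 380. The fold and the level minimum set them. At 1.5-fold they were 295 and 526, at 4-fold 58 and 151, at a level of 2 they were 358 and 539, at a level of 10 they were 54 and 225, and with no filter on low values 358 and 540. Against non-floor plate alone they were 258 and 605 and against caudal brain alone 272 and 362. Genes whose lowest value is not shared gave 56 and 103. A level of 5 in both other libraries for lower genes gave 151 and 215. Protein-coding genes only gave 118 and 69, and a further 2-fold beyond E8.5 mesoderm gave 98 and 83; both were chosen after seeing the data. Higher genes made up 28.4% of counted genes, 41.3% with level 5 in both others, 42.9% against caudal brain alone, 39.9% with a level of 2 or no filter, 63.1% for protein-coding genes and 54.1% beyond mesoderm too. The shift moved the counts less. With no shift removed they were 184 and 366, with 1 shift from the mean of both libraries 152 and 398, and with the shift from genes at level 5 in all 3 libraries 187 and 361. Of the 85 counted genes that were followed, 0 changed direction under these settings. Most of the settings could not have turned a gene already 2-fold beyond both libraries, so this is no measure of robustness. Removing 1 mean shift ended the count of Ptch1, Spon1, Crabp1 and Magel2, removing none that of Crabp1, and a level of 10 that of 35 genes, with Shh, Foxa2 and Gli1 among them. At 4-fold 38 were no longer counted, Ptch1, Gli1, Foxd1, Gpc3 and Spon1 among them. Against non-floor plate alone, and with level 5 in both others, the same 8 were not counted (Sema3a, Pax8, Actc1, Id1, Spry2, Etv5, Il17rd and Nrp2), and beyond mesoderm too 28 were not. By construction 62 fall outside the genes whose lowest value is not shared, Shh, Foxa2, Gli1, Nkx2-9 and Nkx2-1 among them, and Tardbp, mt-Rnr1 and Ttc3 fall out where all-or-none genes are left out. The depth of each library is unknown, so what counting error limits cannot be stated, and a level at a shared lowest value hides any difference below it.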

Other observations

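Among genes named by no list, several had their highest level of the 16 libraries in floor plate, and they were chosen after their values were seen. Sall1 and Sall3, zinc-finger factors, had levels of 26.3 and 16.0045 in floor plate, 8.83 and 5.92 in non-floor plate, and 6.88 and 3.17 in caudal brain. Tmem47, a membrane protein of cell junctions, was at 50.8 in floor plate, 7.73 in non-floor plate and 12.7 in caudal brain. Foxd4, a forkhead factor, had levels of 17.8 in floor plate and 4.92 in non-floor plate and was at its lowest value in the other 14 libraries, as Hesx1 was. Cryab, a small heat shock protein, had a level of 7.42 in floor plate and was at its lowest value in the other 15 libraries, as Foxa2 was. Epas1, a hypoxia-inducible factor, was at 6.84 in floor plate and at its lowest value in the 3 other E8.5 libraries.

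Small RNAs of the Dlk1 and Meg3 imprinted region were also among the higher genes. Mir377 was at 6.38 in floor plate and at its lowest value in non-floor plate and caudal brain. Mir544 was at 5.20 in floor plate, the lowest value in non-floor plate and 1.84 in caudal brain. Meg3 itself was at 6.51 in floor plate, 3.51 in non-floor plate and 2.75 in caudal brain, and was not counted. A library made from total RNA and read at 50 bases holds hairpin and host transcript reads, so these values are not those of the mature microRNAs.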
